A study of Mus musculus with 10 samples.

Results

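A group of 10 genes that mark or regulate the stem and differentiating spermatogonia of the mouse testis was read out in mature sperm and in testes: Gfra1, Ret, Zbtb16 (PLZF), Id4, Nanos3, Uchl1 (PGP9.5), Kit, Sohlh1, Stra8 and Dazl. They were chosen by gene symbol among genes with a RefSeq mRNA (an NM_ identifier), of which 16082 were listed in these data. The values of a gene's NM_ transcripts were added together. Of the 10 genes, 9 were listed in at least 1 library and Gfra1 alone was listed in all 10 libraries. Ret was listed in none.

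RNA depleted of ribosomal RNA was sequenced from mice labelled as C57BL/6 and aged 3 to 5 months (C57BL/6J and younger in part, by the study's methods), in 4 libraries of control sperm, 2 of control testes, 2 of cadmium sperm and 2 of cadmium testes. Cadmium mice received CdCl2 intraperitoneally once, at 3 mg per kg of body weight, control mice received saline (0.9% NaCl) instead, and all were killed 35 days later. Sperm had been purified, with lysis of somatic cells and pools of mice in the study's methods for control sperm, whereas testes were taken as tissue with all their cell types. The study reported that PCR of purified sperm RNA did not amplify c-kit (Kit), CD4 or E-cadherin. The study left out control sperm 1 for a low Pearson correlation with its other sperm replicates. The tests below did so too unless stated, which leaves control sperm 2, 3 and 4.

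Spermatogonia are the diploid germ cells at the base of the seminiferous tubule. Undifferentiated spermatogonia, among them the stem cells, depend on GDNF from Sertoli and peritubular cells, which binds the co-receptor GFRA1 and signals through the kinase RET. Retinoic acid moves them into differentiation, when the receptor KIT and the transcription factor SOHLH1 come up and STRA8 prepares entry into meiosis. Mature sperm lie several cell types downstream and have little transcription of their own. In bulk RNA of this kind, fewer cells of a type and less RNA per cell cannot be told apart.

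Expected counts, the estimated fragments per transcript, summed to between 366455 and 1058017 in control sperm, 1155491 and 1254477 in cadmium sperm, and 2606086 and 2866856 in the 4 testes libraries. Between 9.14 and 13.6% of a library fell on RefSeq mRNAs and 73.4 to 78.6% on noncoding RNAs of the NONCODE catalogue. The tables do not pair NONCODE entries with genes, so the share of a gene's fragments given to overlapping noncoding entries was not tested, and none of the 10 genes had more than 1 transcript listed. All pairs of libraries within a group differed by more than counting noise, with a chi-square of at least 9.63 per degree of freedom. Control testes 1 and cadmium testes 1 were closer to each other (2.45), as were control testes 2 and cadmium testes 2 (3.32), than either pair of testes replicates (12.2 and 9.63). The study's methods describe the control replicates as biological, with a separate pool of mice for each sperm library. Neither they nor the labels say this of the cadmium libraries, where the spread behind a p-value may be technical.

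The 10 genes together were rare. They took 0.0129 to 0.106% of the RefSeq mRNA counts of a library. Of their 100 values, 55 were 0, 24 were above 0 but no more than 3 counts, 7 were over 10 counts and 4 were over 100. The 4 values over 100 were those of Gfra1 in the testes. Testes libraries listed 6 or 7 of the genes, cadmium sperm libraries 5 and control sperm libraries 1 to 3, an order that follows the library totals. A count of 0 allows a level of up to 3 counts, which is 1.05 to 1.15 CPM (counts scaled to the library total) in testes but 2.39 to 8.19 CPM in sperm. These floors cover counting error only.

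**Figure D1:**
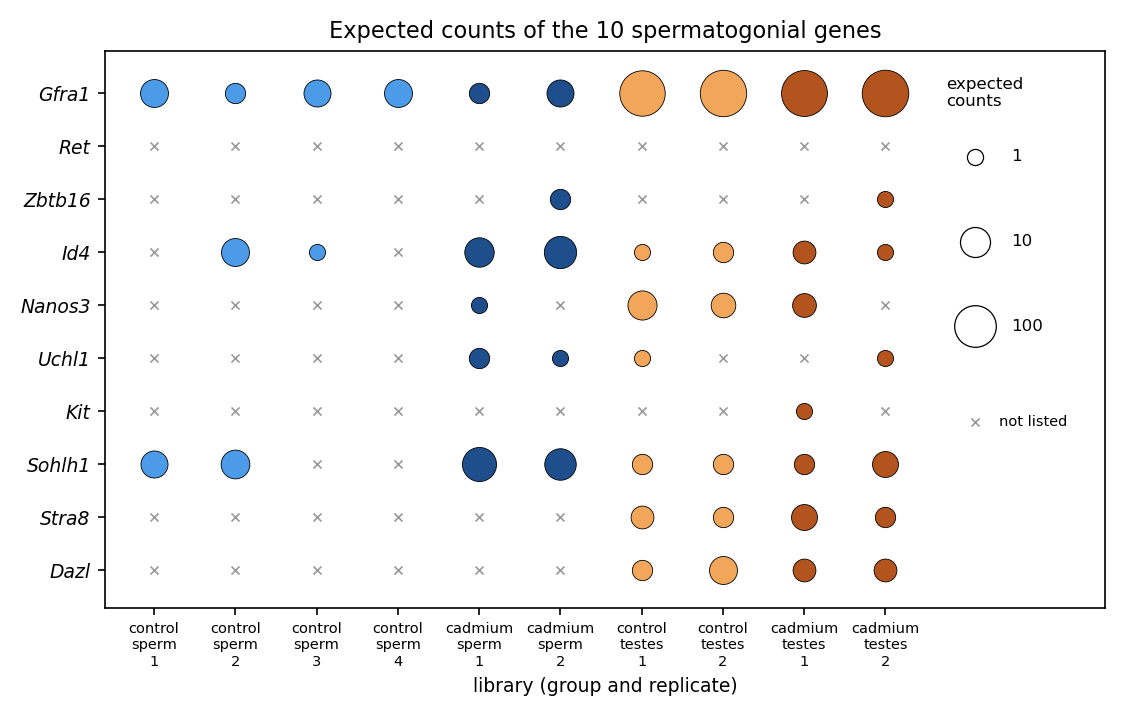
Expected counts of the 10 genes (rows) in the 10 libraries (columns), with the point area growing with log2 of the count plus 1 and a grey cross where the gene was not listed. Gfra1 fills every column and holds the 4 largest points, 242 to 321 counts in the testes, while Ret has crosses only.

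Gfra1, the GDNF co-receptor of undifferentiated spermatogonia, was the abundant member in testes. Its level was 19.18 and 26.89 FPKM (fragments scaled to transcript length and library size) in control testes 1 and 2, from 242 and 308 counts. In cadmium testes 1 and 2 it was 21.66 and 26.95 FPKM, from 271 and 321 counts. It stood 293rd of the 13907 RefSeq genes listed in control testes, above 97.9% of them, and took 93.2 to 96.1% of the counts of the 10 genes in the 4 testes libraries. In control sperm 1 to 4 its level was 3.75, 0.43, 3.73 and 3.12 FPKM, from 7, 2, 6 and 7 counts. In cadmium sperm 1 and 2 it was 0.39 and 1.08 FPKM, from 2 and 6 counts. The sperm and testes ranges were far apart under either treatment, and the listed transcript was NM_001285457, of 4424 bases, of the 2 RefSeq transcripts of the gene.

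Ret, the signalling partner of GFRA1, was listed in no library, which allows up to 1.05 to 1.15 CPM in testes and up to 2.39 to 8.19 CPM in sperm. Gfra1 had 84.4 to 118 CPM in the same testes libraries. CPM are not scaled to length, so these values do not rank the pair. Zbtb16, a zinc finger repressor needed for stem cell self-renewal, had 2 counts in cadmium sperm 2 and 1 in cadmium testes 2. It was at 0 in the other 8 libraries. Kit, the receptor of stem cell factor and a mark of differentiating spermatogonia, was listed once, with 1 count in cadmium testes 1.

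Id4, an HLH protein without a DNA-binding region that holds back other HLH factors in stem spermatogonia, had its higher levels in sperm. Control testes 1 and 2 had 0.22 and 0.48 FPKM and cadmium testes 1 and 2 had 0.65 and 0.23 FPKM, from 1 to 3 counts each. Cadmium sperm 1 and 2 had 4.78 and 7.35 FPKM, from 9 and 15 counts. Control sperm 1 to 4 had 0, 4.06, 1.69 and 0 FPKM, from 0, 7, 1 and 0 counts. The cadmium sperm libraries were above every testes library and above every control sperm library, whereas control sperm overlapped with the testes. At 3 counts Id4 would have read 4.26, 4.93 and 3.56 FPKM in control sperm 1, 3 and 4. The 4.78 FPKM of cadmium sperm 1 lay below that floor in control sperm 3 and not far above it in control sperm 1 and 4.

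Sohlh1, a basic HLH transcription factor of differentiating spermatogonia, also had its highest group mean in cadmium sperm. Its level was 0.56 and 0.62 FPKM in control testes, from 2 counts each, and 0.57 and 1.49 FPKM in cadmium testes, from 2 and 5 counts. In cadmium sperm 1 and 2 it was 14.49 and 8.28 FPKM, from 21 and 13 counts. In control sperm 1 to 4 it was 11.37, 6.03, 0 and 0 FPKM, from 6, 8, 0 and 0 counts. The control sperm libraries were thus split, and the smallest 2 of the 3 tested ones were those at 0. A gene of this length at 3 counts would have read 6.36 FPKM in control sperm 3 and 4.59 FPKM in control sperm 4, so a level like that of control sperm 2 was not detectable in the former. In cadmium sperm Sohlh1 was 607th and Id4 1095th of the 9654 RefSeq genes listed.

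**Figure D2:**
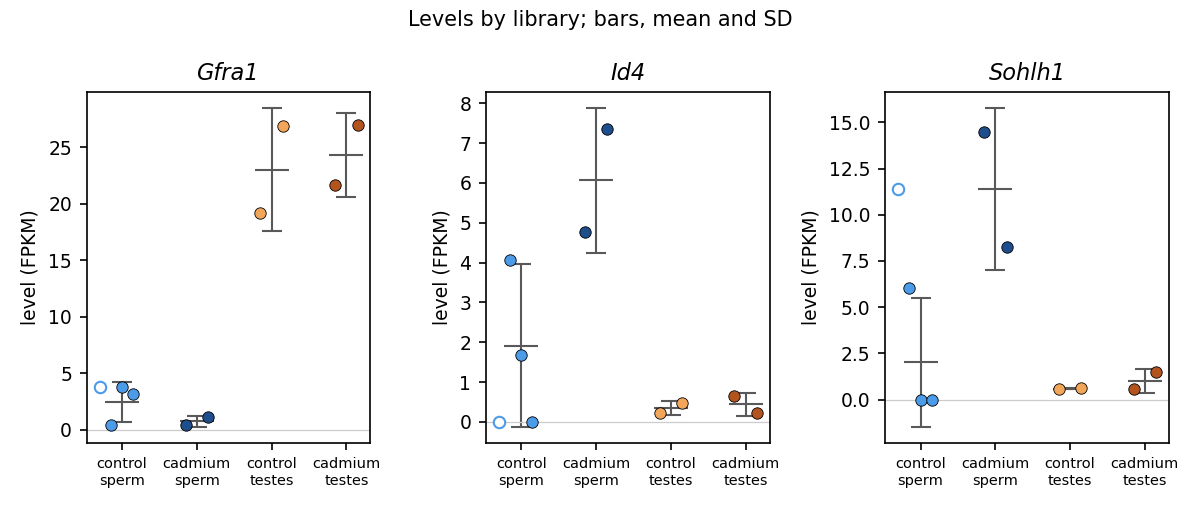
Levels in FPKM of the members with the most counts, by group, with a point per library, a bar for the mean and SD, and an open point for control sperm 1, which the tests left out. Gfra1 lies at 19.18 FPKM or more in the testes and at 3.75 or less in sperm, while Id4 and Sohlh1 have their highest library in cadmium sperm and are at 1.49 FPKM or less in every testes library.

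The other members, with roles in RNA control, meiotic entry and protein turnover, were at the lower edge of detection. Nanos3, an RNA-binding protein of undifferentiated spermatogonia, had 4.37 and 2.26 FPKM in control testes, from 8.56 and 4 counts. It had 1.8 and 0 FPKM in cadmium testes and 1.25 and 0 FPKM in cadmium sperm, and was at 0 in all 4 control sperm libraries. Stra8, which is induced by retinoic acid, was listed in testes alone, at 0.74 and 0.54 FPKM in control and 1.24 and 0.52 FPKM in cadmium libraries. Dazl, an RNA-binding protein that promotes translation in germ cells, was also listed in testes alone, at 0.24 and 0.93 FPKM in control and 0.37 and 0.39 FPKM in cadmium libraries. Uchl1, a ubiquitin hydrolase of spermatogonia, had 1.56 and 0.72 FPKM in cadmium sperm and was at 0 in control sperm. It had 0.32 and 0 FPKM in control testes and 0 and 0.34 FPKM in cadmium testes. Each of its values above 0 came from 1 or 2 counts, and the highest of them was in cadmium sperm 1. The zero of Stra8 in each sperm library allows 1.64 to 5.63 FPKM, which is above its levels in testes. No single sperm library could thus show a difference between the tissues for Stra8, and the sum over the sperm libraries was not tested. The zeros of Dazl allow 0.821 to 2.81 FPKM in a sperm library, above its levels in testes other than the 0.93 FPKM of control testes 2.

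The tests were edgeR's quasi-likelihood test on all RNA classes together, and a gene was called where the p, adjusted by Benjamini and Hochberg's method, was under 0.05 and the fold change over 2. In control sperm against control testes, 4 of the 10 genes had the 10 counts needed to be tested and 1, Gfra1, was called lower, where 7.14% of all 26303 features were called and 3.87% called lower. Gfra1 was lower in sperm, at 2.43 ± 1.76 FPKM (SD, n = 3) against 23.0 ± 5.45 FPKM (SD, n = 2). The edgeR log2 fold change was -3.35 ± 1.00 (SE) with an adjusted p of 0.0176. The median log2 fold change of all features was -1.09 in this comparison and moved to -1.47 with the size factors of DESeq2, and the calls moved from 859 higher and 1019 lower to 852 higher and 1777 lower, so the fall of Gfra1 is to be read against that median. The call of Gfra1 held in 12 of 15 alternatives, whose adjusted p ran from 0.000111 to 0.341. It was lost without control sperm 2 (0.112), control sperm 4 (0.0579) or control testes 2 (0.341).

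The other 3 tested genes were not called in control sperm against control testes. Id4 had an edgeR log2 fold change of 2.72 ± 1.51 (SE, adjusted p 0.195) and Sohlh1 one of 2.33 ± 1.46 (SE, adjusted p 0.263). Their 95% intervals ran from -0.25 to 5.68 and from -0.53 to 5.19, so they held both 0 and changes of many fold. Nanos3, at 0 in the 3 sperm libraries, had an edgeR adjusted p of 0.120, and it passed in 2 of 12 alternatives, limma on log2(FPKM + 1) (0.00779) and a filter of 1 FPKM (0.0472), within a range of 0.00779 to 0.850. Its level in testes, 3.32 ± 1.49 FPKM (SD, n = 2), was below the 3-count floor of each of those sperm libraries, 3.88 to 11.2 FPKM. No single sperm library could thus show a difference at this depth, and the test rested on the 3 libraries together.

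In cadmium sperm against cadmium testes, 3 of the 10 genes were tested and all 3 were called, where 28.0% of all 27078 features were called, 14.0% higher and 14.0% lower. Sohlh1 and Id4 reached the 10 counts needed through cadmium sperm, at 34 and 24 counts against 7 and 4 in cadmium testes. Stra8 and Dazl, at 0 in cadmium sperm, had 7 and 6 counts in cadmium testes and were not tested. The share of members called is thus shaped by the filter. Gfra1 was lower in sperm, at 0.735 ± 0.488 FPKM against 24.3 ± 3.74 FPKM (SD, n = 2 each), with an edgeR log2 fold change of -4.75 ± 0.71 (SE, adjusted p 1.17e-07). It was called in 13 of 13 alternatives. Sohlh1 was higher in sperm, at 11.4 ± 4.39 FPKM against 1.03 ± 0.651 FPKM (SD, n = 2 each), with an edgeR log2 fold change of 3.63 ± 0.84 (SE, adjusted p 0.000437). Id4 was higher in sperm as well, at 6.07 ± 1.82 FPKM against 0.440 ± 0.297 FPKM (SD, n = 2 each), with an edgeR log2 fold change of 4.0 ± 0.97 (SE, adjusted p 0.000825). The libraries of sperm and testes did not overlap for any of the 3 genes. With 2 libraries in each group this adds little to the calls, and the share of all features without overlap was not computed.

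The rises of Sohlh1 and Id4 rested on 34 and 24 counts in sperm and each held in 11 of 13 alternatives. Sohlh1 lost its call without cadmium sperm 1 (adjusted p 0.0542) and in 1 fit over all 4 groups (0.112), within a range of 0.000220 to 0.112. Id4 lost its call without cadmium sperm 2 (0.0579) and in the same joint fit (0.0872), within a range of 0.000455 to 0.0872. The median log2 fold change of all features was -0.44 in this comparison.

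**Figure D3:**
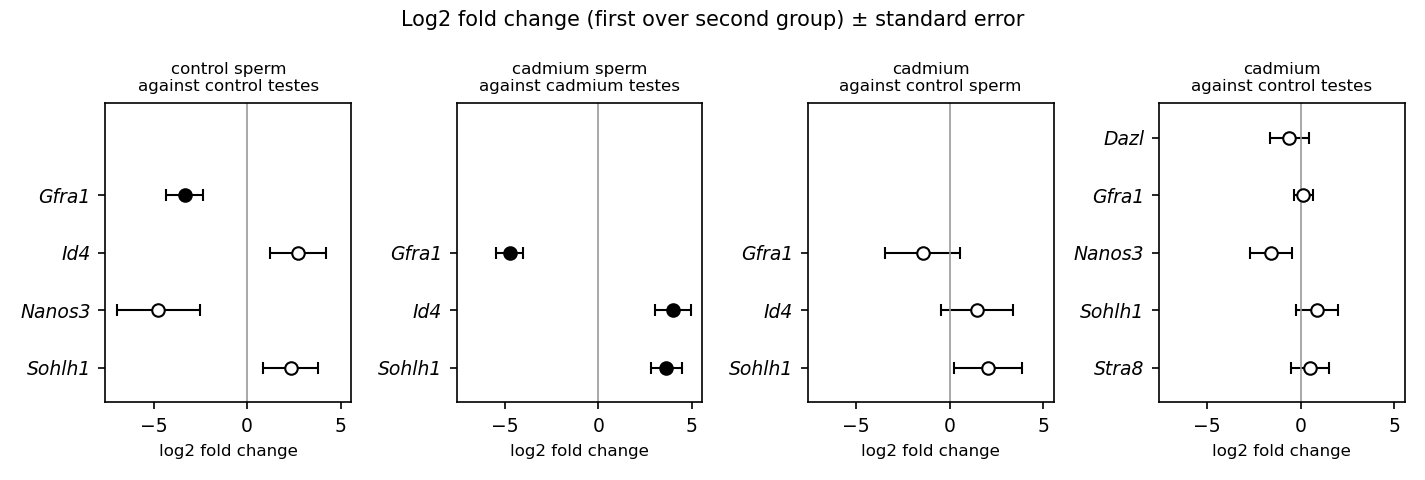
Log2 fold change with its standard error for the members tested in 4 comparisons, the first-named group over the second, with filled points for called genes and open points for genes that did not pass. Gfra1 is called on the negative side in both sperm against testes panels, Id4 and Sohlh1 on the positive side for cadmium sperm, and no point is filled in either cadmium against control panel.

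The stretches upstream of these 3 genes are shown because the 3 separated by direction between sperm and testes. They are the 250 bases before the start of each gene in RefSeq's GRCm38.p6, where 8 of the 10 genes had a promoter entry and Ret and Zbtb16 had none. Capitals mark CANNTG, the E-box letters that basic HLH proteins bind, which read alike on both strands; ID4 itself lacks the region that binds it. Sohlh1 lies at chr2:25842995-25847248 and its stretch at chr2:25847249-25847498 on the minus strand. Gfra1 lies at chr19:58235581-58455946 and its stretch, before a start inside that span, at chr19:58455399-58455648 on the minus strand. Id4 lies at chr13:48261116-48266028 and its stretch at chr13:48260866-48261115 on the plus strand.
Sohlh1: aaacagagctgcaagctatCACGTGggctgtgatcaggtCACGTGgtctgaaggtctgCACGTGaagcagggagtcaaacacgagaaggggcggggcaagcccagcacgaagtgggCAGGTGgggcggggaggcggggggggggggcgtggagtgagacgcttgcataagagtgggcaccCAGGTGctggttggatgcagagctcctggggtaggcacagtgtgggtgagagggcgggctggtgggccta
Gfra1: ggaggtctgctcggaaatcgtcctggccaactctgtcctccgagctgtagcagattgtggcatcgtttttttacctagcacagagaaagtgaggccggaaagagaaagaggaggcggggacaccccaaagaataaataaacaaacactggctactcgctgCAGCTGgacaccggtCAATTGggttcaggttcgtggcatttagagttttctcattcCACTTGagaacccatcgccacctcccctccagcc
Id4: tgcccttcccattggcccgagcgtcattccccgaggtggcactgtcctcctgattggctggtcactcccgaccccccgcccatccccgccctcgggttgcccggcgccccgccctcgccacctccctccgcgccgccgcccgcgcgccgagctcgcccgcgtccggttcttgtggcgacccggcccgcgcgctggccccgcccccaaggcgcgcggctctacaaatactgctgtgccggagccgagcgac
The stretch of Sohlh1 held 5 E-boxes, 3 of them CACGTG, at 231, 211 and 192 bases before the start. That of Gfra1 held 3 and none was CACGTG, and that of Id4 held none. Of 32851 such stretches in the table, 66.2% held CANNTG, 6.02% held CACGTG and 0.0609% held CACGTG at least 3 times. AGGTCA, the letters of a nuclear receptor site, were found on either strand 2 times before Stra8 and 1 time before Sohlh1, against 14.0% of all stretches with at least 1. A match of letters is a description and does not show binding.

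Cadmium against control testes addressed whether the RNAs of these genes differed 35 days after the injection. No member was called among the 5 tested, and edgeR called 0% of the 30605 features. At an unadjusted p under 0.05 there were 384 features, DESeq2 called 4 and limma called 0. With the replicate number as a block edgeR called 154, though the labels do not say what that number marks. Without a filter on low counts edgeR called 88, and it called 15 without control testes 1, 106 without control testes 2, 54 without cadmium testes 1 and 43 without cadmium testes 2, with no member among them in any of these fits. Gfra1 was 24.3 ± 3.74 FPKM in cadmium and 23.0 ± 5.45 FPKM in control testes (SD, n = 2 each), and its log2 fold change of 0.13 had a 95% interval from -0.85 to 1.12. It turned to -0.27 without control testes 1 and to -0.25 without cadmium testes 2. Nanos3 had a log2 fold change of -1.61, Dazl -0.61, Sohlh1 0.87 and Stra8 0.50, all with an edgeR adjusted p of 1.00. Their intervals were wide, as for Nanos3, from -3.80 to 0.58.

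In cadmium against control sperm none of the 3 tested members was called, beside 20 of 17070 features (0.117%). Sohlh1 was 11.4 ± 4.39 FPKM in cadmium sperm (SD, n = 2) and 2.01 ± 3.48 FPKM in control sperm (SD, n = 3), and its log2 fold change of 2.07 had a 95% interval from -1.52 to 5.65. Id4 was 6.07 ± 1.82 FPKM (SD, n = 2) and 1.92 ± 2.04 FPKM (SD, n = 3), with a log2 fold change of 1.47 and an interval from -2.33 to 5.26. Gfra1 was 0.735 ± 0.488 FPKM (SD, n = 2) and 2.43 ± 1.76 FPKM (SD, n = 3), with a log2 fold change of -1.44 and an interval from -5.39 to 2.51. All 3 had an edgeR adjusted p of 1.00. The 2 cadmium libraries lay above the 3 control libraries for Sohlh1 and Id4, but control sperm 1, left out of the test, had 11.37 FPKM of Sohlh1 and lay between the cadmium libraries. The share of all features separated in this way was not computed. Both cadmium sperm libraries were also larger than all 4 control sperm libraries, and the part of depth in these values was not tested.

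The difference of the cadmium effect between sperm and testes was tested in 1 model. It called 3 of 34929 features (0.00859%) and none of the 6 members tested. The difference was 1.18 ± 1.98 (SE) on the log2 scale for Sohlh1, 1.16 ± 2.08 for Id4, -1.41 ± 1.24 for Gfra1 and 4.22 ± 3.24 for Nanos3. Stra8 and Dazl, at 0 in the sperm libraries, had no standard error that could be estimated.

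The wider pathways were followed through lists of genes with a related role. As for the members, a gene can reach the 10 counts needed through 1 group alone, so the shares called are shaped by the filter. Of 20 genes of undifferentiated spermatogonia other than the members, 4 were tested in control sperm against control testes. None was called, where 7.14% of all features were, and the median log2 fold change was -0.22 beside -1.09 for all features. In cadmium sperm against cadmium testes 1 of 4 was called, higher, a share like the 28.0% of all features. The median was 0.25 beside -0.44 for all features. The called gene was Lhx1, a transcription factor induced by GDNF, at 7.3 and 4.1 FPKM in cadmium sperm and 1.3 and 0.54 FPKM in cadmium testes. Its edgeR log2 fold change was 2.88 ± 0.75 (SE, adjusted p 0.00184), and the call held in 10 of 13 alternatives (0.00135 to 0.174). It was lost without cadmium sperm 1 (0.0730), with limma (0.0669) and in 1 fit over all 4 groups (0.174). Control sperm 1 to 4 had 0, 4.85, 12.09 and 0 FPKM of Lhx1 and control testes 1.67 and 0.99 FPKM, so these groups overlapped.

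Of 12 genes of differentiating spermatogonia, 3 were tested in each of these comparisons. None was called in the control comparison, beside 7.14% of all features. The median log2 fold change there was -3.70, or -2.06 with a gene at 0 in sperm set to its 3-count bound. In cadmium sperm against cadmium testes 1 was called higher and 1 lower, where 14.0% of all features were called in each direction. Lmo1, a LIM-domain cofactor, was higher and Dmrtb1, a DM-domain transcription factor of late spermatogonia, was lower, and the median was -0.30. Lmo1 had 24.88 and 7.95 FPKM in cadmium sperm against 0.39 and 0.41 FPKM in cadmium testes, with an edgeR log2 fold change of 5.34 ± 0.99 (SE, adjusted p 1.25e-05), and it was called in 13 of 13 alternatives. Control sperm 1 to 4 had 0, 9.41, 24.52 and 17.46 FPKM of Lmo1 and control testes 0 and 0.74 FPKM. Dmrtb1 had 1.96 and 0.45 FPKM in cadmium sperm against 13.43 and 30.99 FPKM in cadmium testes, with an edgeR log2 fold change of -4.05 ± 0.77 (SE, adjusted p 2.32e-05). Its call was lost without cadmium sperm 2 (0.101), the highest of 13 alternatives that began at 2.86e-08. The cadmium sperm and cadmium testes libraries did not overlap for either gene, though the share of all features without overlap was not computed. Control sperm 1 had no Lmo1, like control testes 1.

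Of 20 genes of the retinoic acid pathway, which drives the step marked by Stra8 and Kit, 1 of 6 tested was called in control sperm against control testes, where 7.14% of all features were, and 3 of 7 in cadmium sperm against cadmium testes, where 28.0% were. The median log2 fold changes were -3.35 (-1.22 with 2 genes at their bound) and 1.07. Rdh10, which oxidises retinol in the first step of retinoic acid synthesis, was the most distinct. It had 160.73, 274.22, 124.84 and 226.7 FPKM in control sperm 1 to 4 and 432.82 and 245.1 FPKM in cadmium sperm 1 and 2. In the testes it had 3.09 and 2.89 FPKM in control and 3.74 and 1.47 FPKM in cadmium libraries. The lowest sperm library was thus far above the highest testes library. Its edgeR log2 fold change was 6.33 ± 0.84 (SE, adjusted p 2.16e-11) in the control comparison and 7.30 ± 0.77 (SE, adjusted p 7.15e-12) in the cadmium one, called in 15 of 15 and 13 of 13 alternatives.

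Lrat, which stores retinol as esters, went the other way in cadmium libraries. It had 0 and 0.3 FPKM in cadmium sperm against 6.33 and 3.12 FPKM in cadmium testes, with an edgeR log2 fold change of -4.51 ± 0.93 (SE, adjusted p 7.87e-05). The call was lost without cadmium sperm 1 (0.0555), the highest of 13 alternatives that began at 3.64e-07. Control sperm 2 had 0.35 FPKM of Lrat, control sperm 1, 3 and 4 had 0, and control testes had 7.6 and 3.75 FPKM, which was not called (edgeR adjusted p 0.0653). Rara, a retinoic acid receptor, had 2.46 and 2.23 FPKM in cadmium sperm against 0.32 and 0.69 FPKM in cadmium testes, with an edgeR log2 fold change of 2.38 ± 0.92 (SE, adjusted p 0.0423). Its call was lost in each of the 4 fits that left out 1 library, without cadmium sperm 1 (0.121) or 2 (0.140) and without cadmium testes 1 (0.286) or 2 (0.0611), and held in 2 of 13 alternatives (0.0357 to 0.318).

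**Figure D4:**
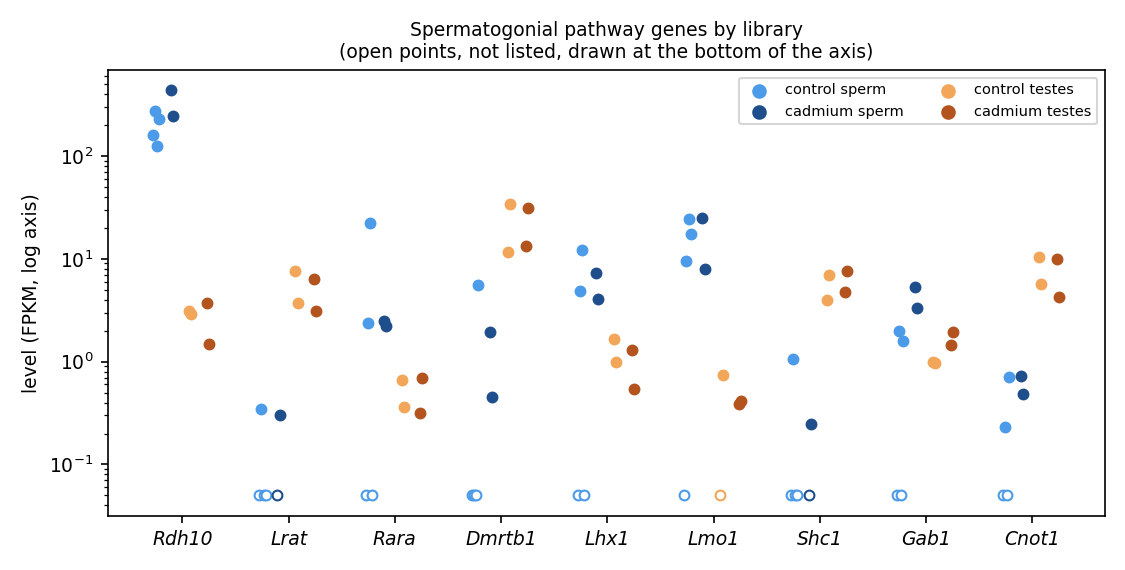
Levels in FPKM on a log axis of the pathway genes described in the text, with a point per library coloured by group and open points at the bottom of the axis for libraries that did not list the gene. The 6 sperm libraries of Rdh10 lie at 124.84 FPKM or more and its 4 testes libraries at 3.74 or less, while Cnot1, Dmrtb1, Lrat and Shc1 are higher in the testes.

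Of 20 genes of GDNF and KIT signalling, 7 were tested in each sperm against testes comparison. None was called between the control groups, where 7.14% of all features were. Between the cadmium groups 2 of 7 were called, a share like the 28.0% of all features. The median log2 fold changes were -0.98 (-0.46 with 2 genes at their bound) and -0.17. Shc1, an adaptor that binds RET and KIT, had 0 and 0.25 FPKM in cadmium sperm against 4.8 and 7.69 FPKM in cadmium testes, with an edgeR log2 fold change of -5.24 ± 1.06 (SE, adjusted p 5.80e-05). Its call was lost without cadmium sperm 1 (0.0558), the highest of 13 alternatives that began at 7.49e-07. Gab1, another adaptor, had 5.36 and 3.3 FPKM in cadmium sperm against 1.44 and 1.93 FPKM in cadmium testes, with an edgeR log2 fold change of 1.58 ± 0.62 (SE, adjusted p 0.0452). Its call was lost without cadmium sperm 1 (0.198) or 2 (0.122) and without cadmium testes 1 (0.305) or 2 (0.0582), and held in 3 of 13 alternatives (0.0311 to 0.508).

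Of 10 partners of DAZ and NANOS proteins, Cnot1, the scaffold of the deadenylase complex that NANOS proteins recruit, was the one called. It was lower in sperm in both treatments, beside list medians of -2.72 (-0.89 with 2 of the 7 tested genes at their bound) and, over 9 tested genes, -1.15. In the control comparison it was 1 of 7 tested genes called, where 7.14% of all features were. In the cadmium comparison it was 1 of 9, where 28.0% were. Control testes had 10.42 and 5.64 FPKM and control sperm 1 to 4 had 0, 0.23, 0 and 0.71 FPKM, with an edgeR log2 fold change of -4.37 ± 1.27 (SE, adjusted p 0.0131). The call was lost without control sperm 2 (0.108), control testes 1 (0.298) or control testes 2 (0.104), within a range of 0.000257 to 0.298. Cadmium testes had 10.04 and 4.23 FPKM and cadmium sperm 0.73 and 0.48 FPKM, with an edgeR log2 fold change of -3.24 ± 0.66 (SE, adjusted p 6.32e-05). That call was lost without cadmium sperm 2 (0.0630), the highest of 13 alternatives that began at 3.06e-08. Of 10 niche ligands, 3 and 2 were tested in these comparisons. Of 6 ID partners and other HLH factors 1 was tested in each. None was called, beside 7.14% and 28.0% of all features, and so few tested genes do not show that these lists were unchanged. The medians of the niche ligands were -1.51 (-0.28 with 1 gene at its bound) and -1.63. In neither cadmium against control comparison was any gene of these lists called, beside 0% of all features in testes and 0.117% in sperm.

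Markers of other cell types were summed beside these values. Spermatocyte markers, 10 genes led by Sycp3, summed to 3.45 to 8.19 FPKM in the testes, to 0 in all 4 control sperm libraries and to 0 and 3.18 in cadmium sperm. Spermatid markers, 10 genes led by the protamine Prm2, summed to 484 to 591 FPKM in testes, 251 to 506 in control sperm and 443 to 477 in cadmium sperm, and each library listed Prm2. Most of the sum in sperm was Prm2, and control sperm 3 listed no spermatid marker but Prm2 and Tssk6. Prm1, the other protamine, had 121.65 and 127.74 FPKM in control testes and 40.12, 5.24, 0 and 10.97 FPKM in control sperm 1 to 4. In control sperm against control testes 3 of 9 tested spermatid genes were called, beside 7.14% of all features, Tssk6 higher and Tnp1 and Prm1 lower. Tnp1 and Prm1 lost the call without any 1 library other than control sperm 3 (edgeR adjusted p 0.0834 to 0.356 and 0.0867 to 0.341), and Tssk6 lost it without any 1 of the 5 libraries (0.0503 to 0.356). In cadmium sperm against cadmium testes 5 of 8 were called, beside 28.0% of all features. Tssk6 was higher and Spaca1, Tnp1, Prm1 and, named after its values were seen, Tnp2 were lower. Tnp1 (edgeR log2 fold change -4.23 ± 0.75, SE, adjusted p 5.55e-06) held in 13 of 13 alternatives, and each of the other 4 was lost in 3 of the 4 fits that left out 1 library.

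Somatic markers varied between sperm libraries. Their sums were at 0 in some control sperm libraries. The Leydig sum in control sperm 3 and the peritubular and endothelial sum in control sperm 1 were above every testes library. Each was the value of 1 gene, Star (40 counts) and Tagln (22 counts), and the other genes of the list were at 0 there. Sertoli markers, 10 genes led by Clu, summed to 4.16 to 7.09 FPKM in testes, 0 to 4.47 in control sperm and 0.97 to 7.57 in cadmium sperm. Wt1, Gata4, Rhox5, Cldn11, Aard and Fshr were at 0 in all 6 sperm libraries. However, Fshr was at 0 in the testes as well, and Gata4 and Rhox5 had at most 2 counts in a testes library. Sox9, Amh, Clu and Ctsl were listed in sperm, with 13 counts of Clu in cadmium sperm 2. Leydig markers, 8 genes led by Star, summed to 15.9 to 22.2 FPKM in testes, 0 to 27.5 in control sperm and 3.47 to 6.90 in cadmium sperm. Cyp11a1, Insl3, Hsd17b3, Hsd3b6 and Lhcgr were at 0 in sperm, whereas Star, Cyp17a1 and Hsd3b1 were listed there. Lhcgr was at 0 in all 10 libraries, and Cyp11a1, Hsd3b6 and Hsd17b3 had at most 4 counts in a testes library. Their zeros in sperm thus say little. Peritubular and endothelial markers, 7 genes led by Tagln, summed to 11.3 to 15.9 FPKM in testes, 0 to 33.6 in control sperm and 5.87 to 9.53 in cadmium sperm, and Pecam1 and Cdh5 were at 0 in all 10 libraries. Leukocyte and mast cell markers, 8 genes led by Cd68, summed to 0.55 to 1.40 FPKM in testes, 0 to 0.86 in control sperm and 1.70 and 4.45 in cadmium sperm. Cpa3, Cma1, Adgre1 and Cd3e were at 0 throughout, whereas Cd4 had 6 and 4 counts in cadmium sperm 1 and 2 and 2 counts in control sperm 2. Cdh1 (E-cadherin), like Cd4 a target of the study's PCR, had 1 and 3 counts in cadmium sperm 1 and 2 and 0 in control sperm. Both cadmium sperm libraries were above all others for the leukocyte and mast cell list, as they were for Id4. The sums of that list there came from 5 and 12 counts. Epididymal markers, 8 genes led by Adam7, summed to 0.77 to 11.4 FPKM in testes, 0 to 3.60 in control sperm and 2.54 to 2.80 in cadmium sperm. Of these 5 lists 1 gene was called in 1 comparison, where 28.0% of all features were. This was Adam7, lower in cadmium sperm than in cadmium testes, although its libraries overlapped at 0. Its call was lost without cadmium sperm 1 (edgeR adjusted p 0.506) or 2 (0.341) and held in 4 of 10 alternatives (0.00663 to 0.597). The part of such cells in the values of Gfra1, Id4 and Sohlh1 was not tested.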

How the data were processed

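Total RNA from purified sperm and from testes was depleted of ribosomal RNA and sequenced. The authors removed adaptors and low-quality reads. The aligner was SOAPaligner/SOAP2 per the study's methods and HISAT with mm10 per the labels, and the tool that gave the counts is not given in the sources used here. The authors deposited, for every library, an expected count per transcript, which was not normalized. The FPKM that the authors deposited divide these counts by transcript length and library size, and transcripts not listed were taken as 0.

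Expected counts were summed by gene within each RNA class, rounded and tested with edgeR 4.0.16 (quasi-likelihood, TMM) in R 4.3.3, over features with at least 10 counts in a comparison. Adjusted p-values are Benjamini-Hochberg over all features. The standard error is the fold change divided by the square root of F. The script was tested on simulated data. Alternatives were DESeq2 1.42.0, limma 3.58.1 on log2(FPKM + 1), the size factors of DESeq2 (RLE), no filter, a filter of 1 FPKM in 2 samples, RefSeq mRNAs alone, 1 fit over all groups, control sperm 1 included, each replicate left out, a pseudocount of 0.1 and the replicate number as a block. The same replicates without the block were added after seeing the data. Tables were made with Python 3.11.15 and figures with matplotlib 3.10.9.

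The members and the 14 lists were chosen with earlier results of these data known. All 10 members are named. Of the lists, counts are given, with at most 3 called genes per direction and comparison, those with the largest changes, and the highest gene of each marker list of another cell type.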

Additional observations from a re-analysis of the deposited data

Results flagged for a closer look

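In control sperm, the group with 4 libraries, 17 values were tested for 1 library far from the others and 6 were found. A gene listed in 1 of the 4 libraries is found by construction, so the usual chance rate of about 1 in 20 groups does not apply to such genes. All but 1 were genes listed in a single library, whose other 3 libraries were at 0. These were Adam7 (2.85 FPKM) and Dmrtb1 (5.58 FPKM) in control sperm 4, and Lrat (0.35 FPKM), Shc1 (1.07 FPKM) and Tnp1 (4.89 FPKM) in control sperm 2. Rara had 22.08 FPKM in control sperm 3 and 0 to 2.35 FPKM in the others.

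Control sperm 1, which the tests left out, held signal of 2 members. It had 7 counts of Gfra1, where the other control sperm libraries had 2 to 7, and 6 counts of Sohlh1, where they had 0 to 8.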

How the results depend on the processing

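Of 288 recomputed fold changes of members, 275 kept their direction and side of the threshold, 7 lost the call, 2 gained it and 4 reversed. The reversals were Gfra1 in cadmium against control testes (-0.27 without control testes 1 and -0.25 without cadmium testes 2, in a range of -0.27 to 0.66 with 1 library left out), Dazl in the difference of cadmium effects (-0.38 with DESeq2) and Sohlh1 in that difference (-0.0081 in the unblocked fit of replicates 1 and 2). With a pseudocount of 0.1, the mean log2 level of Sohlh1 in control testes minus control sperm turned from -0.27 to 0.81. Of 267 recomputed fold changes of list genes, 187 kept their call and 80 lost it.

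Members called in control sperm against control testes were 1, and 2 with limma and with the 1 FPKM filter. Leaving out 1 library gave 0 to 1. In cadmium sperm against cadmium testes they were 3, and 1 in the fit over all groups, with 2 to 3 when 1 library was left out. In the other comparisons they stayed at 0 in all settings run.

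Features called in control sperm against control testes were 1878, and 3226 with DESeq2, 7129 with limma, 5353 with the 1 FPKM filter, 112 among RefSeq mRNAs alone, 5854 in the fit over all groups, 4918 with control sperm 1 and 425 to 3848 with 1 library left out. In cadmium sperm against cadmium testes they were 7570, and 4847 with DESeq2, 2473 among RefSeq mRNAs alone, 3251 in the fit over all groups and 2719 to 4943 with 1 library left out. In cadmium against control testes they were 0, and 4 with DESeq2, 88 without a filter, 6 with the 1 FPKM filter, 1 in the fit over all groups and 15 to 106 with 1 library left out. In cadmium against control sperm they were 20, and 11 with DESeq2, 0 with limma, 3 among RefSeq mRNAs alone and 7 to 39 with 1 library left out. For the difference of the effects they were 3, and 0 with DESeq2, with limma and among RefSeq mRNAs alone, 13 without a filter and with the 1 FPKM filter, 1 with control sperm 1 and 0 to 26 with 1 library left out. The cause was not tested. In a group left with 1 library, that library was assumed to vary like the others.

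With the replicate number as a block over replicates 1 and 2, features called were 1188 in control sperm against control testes, 154 in cadmium against control testes, 13 in cadmium against control sperm and 19 for the difference of the effects, which had 1 without the block. The block changed no call of a member. The labels do not say what a replicate number marks. Where control sperm entered, these fits and the correlations that follow included control sperm 1. Deviations of same-numbered libraries correlated at 0.687 between control and cadmium testes, at 0.176 to 0.180 between cadmium sperm and the testes groups, and at -0.070 to -0.035 between control sperm and the others.

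Depth limits all members but Gfra1 in testes: 55 of 100 values were 0, and 3 counts were 0.000105 to 0.000819% of a library.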
